A study of Mus musculus with 21 samples.

Results

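The SOX genes encode transcription factors that bind DNA through an HMG box related to that of SRY. This report follows 10 of them, Sox2, Sox4, Sox5, Sox6, Sox8, Sox9, Sox10, Sox11, Sox12 and Sox13, in spiral ganglion neurons (SGNs), hair cells (HCs) and glial cells of the mouse cochlea. They were chosen by symbol, and they are 10 of the 20 Sox and Sry genes in a table of 52550 genes. RNA-Seq libraries of 7 groups were compared, each with 3 replicates. SGNs were taken at E15.5 and at P1, P8, P14 and P30, beside P12 HCs and P8 glial cells. All mice were C57BL/6 and carried the Cre-dependent Rosa26-CAG-loxp-stop-loxp-tdTomato reporter. SGNs came from ShhCre/+ mice and were picked by hand as tdTomato-positive cells. HCs came from Atoh1-CreER+ mice given tamoxifen at P0 and P1, so the libraries mixed cochlear and vestibular HCs. The labels describe manual sorting of these HCs, whereas the study's methods describe a flow cytometer. Glial cells came from vGlut3-iCreER/+ mice given tamoxifen at P2 and P3. That driver also marks inner HCs, and only the area of the spiral ganglion was dissected for glial cells. Cell numbers were 69 to 195 per SGN library, 86 to 125 per glial library and 1200 per HC library. Only SGNs and glial cells at P8 share an age, so in the other comparisons between cell types age and cell type cannot be told apart.

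SOX proteins fall into groups with similar HMG boxes. SOXB1 factors such as SOX2 keep progenitors in an uncommitted state and are needed for the sensory patches of the inner ear. SOXC factors (SOX4, SOX11, SOX12) act in newborn neurons, SOXD factors (SOX5, SOX6, SOX13) lack an activation domain of their own and work beside other SOX proteins, and SOXE factors (SOX8, SOX9, SOX10) act in the neural crest, glia, cartilage and otic epithelium.

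Sequencing depth ran from 10368240 to 37287489 gene counts per library (median 20384100). The limit set by a count of 0 was taken as 3 counts, or 0.0805 to 0.289 CPM (counts scaled to the library total), and covers counting error only. Levels are given as RPKM, the count scaled by gene length and by TMM-corrected library size, so that genes can be compared within a library. TPM was also computed, but a single gene of 57 bases, Gm23935, took between 8.17% and 68.1% of the TPM sum of a library, and at P14 its 3 values were 9.38%, 59.3% and 8.17%. For 9 of 100 member comparisons the group means stood in the opposite order on the TPM scale, and none of these 9 was among the 27 that passed the tests. The marker lists for HCs, SGNs and glial cells were each highest in the libraries of that label. The 5 HC markers summed to 701 to 752 RPKM in HCs, against at most 88.1 RPKM in any other library. The 4 SGN markers summed to 111 to 393 RPKM in SGNs and to 1.60 to 2.96 RPKM in HCs. In glial cells the 4 SGN markers summed to 5.91, 6.46 and 53.4 RPKM. The glial libraries also had the highest sums of 6 connective tissue markers, 216 to 373 RPKM, against at most 115 RPKM elsewhere. Their 4 cycling cell markers summed to 32.2 to 169 RPKM, against at most 17.7 RPKM elsewhere. Within SGN libraries, replicate 1 carried the highest sum of 6 connective tissue markers at P1, P8, P14 and P30. No label says that replicates came from separate animals, so p-values measure only the spread between these samples, which may be technical.

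SOXC transcripts held the highest share of the SOX sum in each SGN library except P8 replicate 1, and SOXE and SOXB1 transcripts held most of it in HCs and glial cells. SOXC genes made up 89.7% ± 7.51 (SD, n = 3) of the summed RPKM of the 10 genes at E15.5 and 92.5% ± 4.56 at P1. Their share was 53.5% ± 13.9 at P8, 58.7% ± 12.3 at P14 and 80.6% ± 17.4 in P30 SGNs. In SGN P8 replicate 1 SOXC genes held 37.6% and SOXE genes 47.0%. In HCs they made up 8.57% ± 1.34, and in glial cells 8.02% ± 4.06. SOXE genes held 66.0% ± 5.18 of the sum in glial cells and 40.6% ± 1.60 in HCs, while Sox2 alone held 38.2% ± 1.40 in HCs. The summed level of the 10 genes in SGNs was 190 ± 25.9 RPKM at E15.5 and 13.5 ± 5.48 RPKM at P30. In bulk samples, fewer cells of a type and less RNA per cell cannot be told apart.

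**Figure D1:**
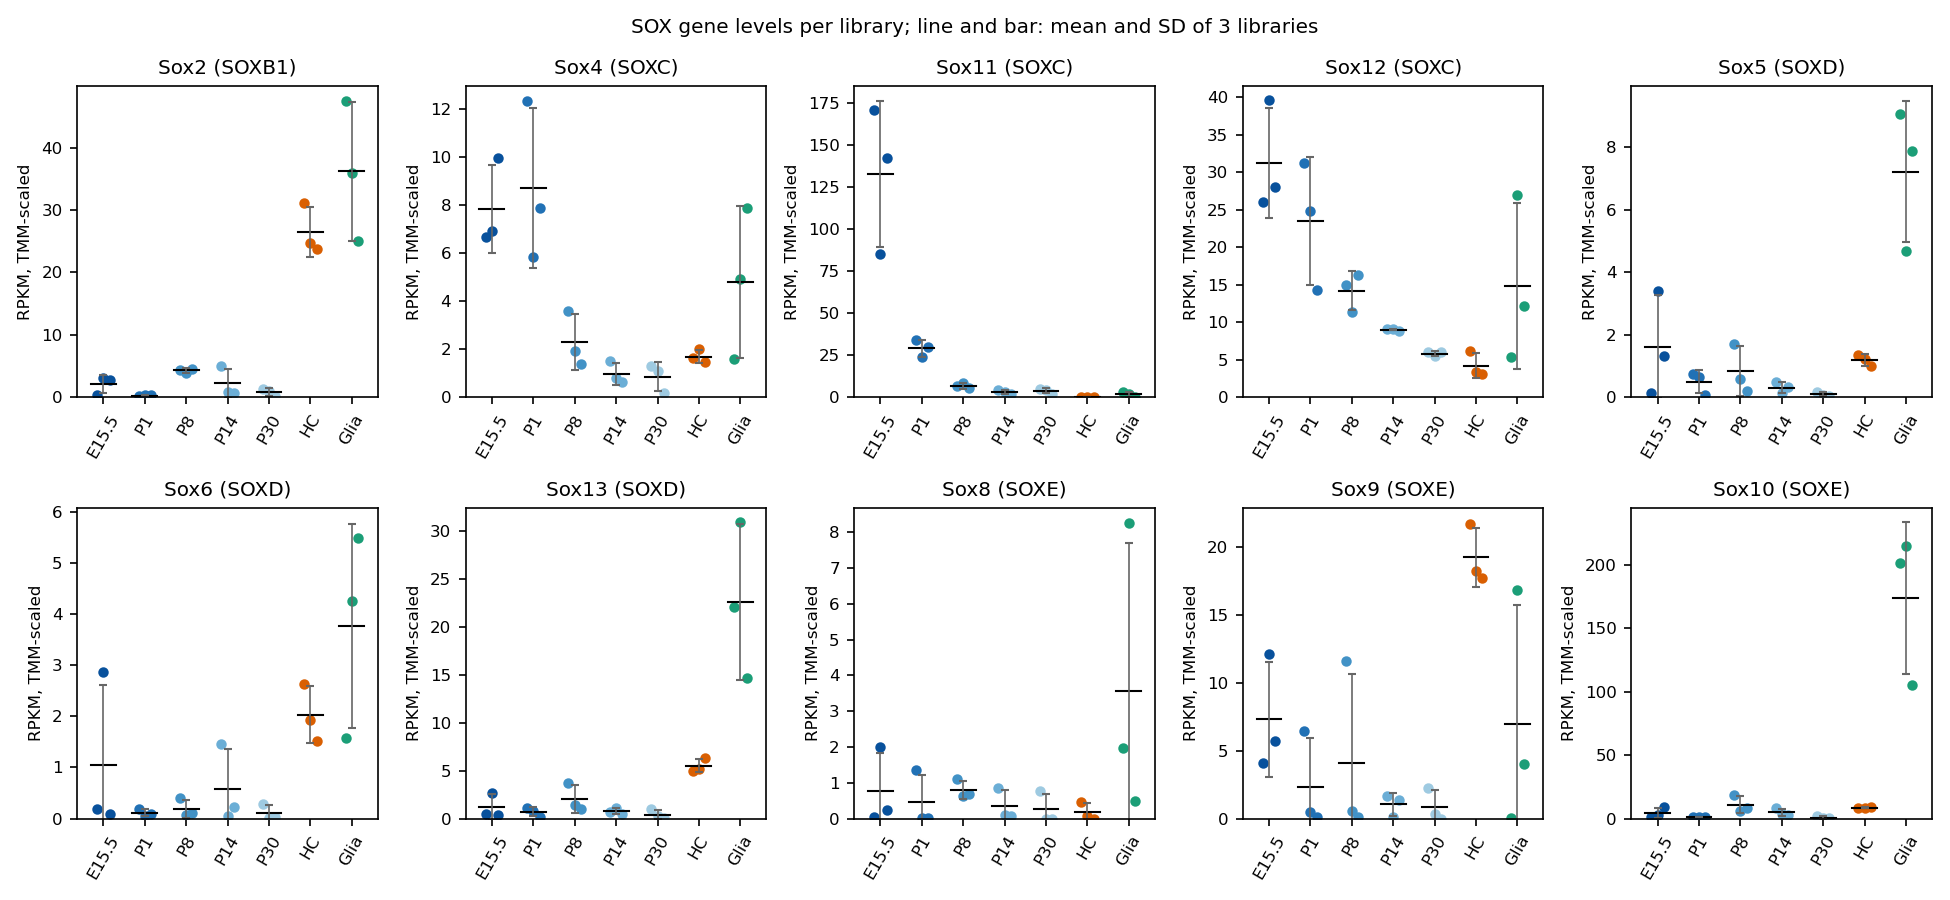
Levels of the 10 SOX genes in each library (points) in RPKM with TMM scaling on linear axes that differ between panels, for 5 SGN ages, P12 HCs and P8 glial cells; lines and bars show the mean and SD of 3 libraries. Sox11 and Sox12 were highest on average in E15.5 SGNs, Sox9 in HCs, and Sox2, Sox5, Sox6, Sox8, Sox10 and Sox13 in glial cells; on the TPM scale Sox2 and Sox6 were highest in HCs and Sox12 in P1 SGNs.

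Sox11, which acts in newly formed neurons and in axon growth, had the highest SGN level of the 10 genes at E15.5. The gene has a single exon on the minus strand of chromosome 12, from 27334264 to 27342574 in GRCm38. Sox4, which often acts beside it, has a single exon on the minus strand of chromosome 13, from 28948919 to 28953713. Sox12, the third gene of the group, has a single exon on the minus strand of chromosome 2, from 152393611 to 152398063. Because these 3 genes were each called lower at P30 than at E15.5, the 250 bases before the RefSeq start of each are shown 5′ to 3′ in gene direction. They lie in GRCm38.p6 at chr12:27342719-27342968 for Sox11, chr13:28953700-28953949 for Sox4 and chr2:152398047-152398296 for Sox12. Capitals mark CCAAT boxes, CCAAT or ATTGG.
Sox11: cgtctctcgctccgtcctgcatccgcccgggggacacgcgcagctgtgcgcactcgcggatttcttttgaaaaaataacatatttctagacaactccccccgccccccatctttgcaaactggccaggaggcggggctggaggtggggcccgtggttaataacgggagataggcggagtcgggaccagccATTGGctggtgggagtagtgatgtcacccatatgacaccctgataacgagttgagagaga
Sox4: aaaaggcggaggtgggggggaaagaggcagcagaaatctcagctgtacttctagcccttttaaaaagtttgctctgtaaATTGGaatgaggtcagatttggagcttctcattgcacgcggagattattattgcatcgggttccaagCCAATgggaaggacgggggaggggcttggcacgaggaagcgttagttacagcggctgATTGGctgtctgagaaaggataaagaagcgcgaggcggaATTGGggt
Sox12: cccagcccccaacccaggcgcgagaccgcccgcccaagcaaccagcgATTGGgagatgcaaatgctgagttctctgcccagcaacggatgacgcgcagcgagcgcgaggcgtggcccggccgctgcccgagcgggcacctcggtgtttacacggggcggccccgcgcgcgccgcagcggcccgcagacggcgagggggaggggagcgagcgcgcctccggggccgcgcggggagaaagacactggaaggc

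The Sox4 window held 4 CCAAT boxes, and those of Sox11 and Sox12 held 1 each. The RefSeq starts of Sox4 and Sox12 lie inside the gene bounds given above, so the ends of these windows overlap the annotated exons. The Sox4 box at 8 to 4 bases before its RefSeq start falls in that overlap. A CCAAT box on either strand was present in 33.9% of the 32851 RefSeq promoter windows of this length, and 0.840% held at least 4. GC boxes (GGGCGG or CCGCCC) numbered 2 in the Sox11 window, 0 in that of Sox4 and 3 in that of Sox12, and 32.7% of windows held at least 1. No GC box overlapped a CCAAT box in these windows. Neither TATAAA (12.4% of windows, either strand) nor AACAAT (9.42%), the core that SOX proteins bind, matched in the 3 windows. GC content was 58.0% for Sox11, 50.8% for Sox4 and 74.4% for Sox12, against a median of 52.4%. These matches are descriptions of letters and were not tested as binding sites. RefSeq promoters were found for 8 of the 10 genes. Those of Sox9 and Sox10 were not analysed here.

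Sox11 fell stepwise through the SGN ages. At E15.5 its level was 170, 85.0 and 142 RPKM, at P1 33.8, 23.5 and 29.6 RPKM, and at P8 6.42, 8.60 and 5.17 RPKM. At P14 it was 3.98, 2.88 and 1.68 RPKM and at P30 4.64, 4.32 and 1.93 RPKM. The 3 ranges from E15.5 to P8 did not touch each other, and the range at P14 also lay below that at P8 (on the TPM scale these last 2 overlapped), while those of P14 and P30 overlapped. Between E15.5 and P1 the level fell by 2.12 on the log2 scale (SE 0.25, 4.35-fold, adjusted p = 0.000117 by limma-voom with Benjamini-Hochberg adjustment). Between P1 and P8 it fell again by 2.12 (SE 0.33, 4.34-fold, adjusted p = 0.00054). The change from P8 to P14 was -1.25 (95% confidence interval -2.29 to -0.20) and did not pass (adjusted p = 0.309), although it passed with DESeq2 (adjusted p = 0.0354). From P14 to P30 the estimate was 0.29 (interval -0.87 to 1.45). Over the whole span Sox11 at P30 was 36.7-fold below E15.5 (log2 -5.20, SE 0.39, adjusted p = 6.02e-08).

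Outside SGNs, Sox11 was low, with its lowest group mean in HCs. HC levels were 0.129, 0.114 and 0.223 RPKM from 18, 22 and 46 counts, and glial levels were 3.02, 1.96 and 0.0934 RPKM. The third glial library had 8 counts of Sox11, whereas the first had 484. E15.5 SGNs exceeded HCs by 9.67 (SE 1.21, adjusted p = 2.15e-06) and glial cells by 6.96 (SE 0.91, adjusted p = 7.27e-06) on the log2 scale. At P8 the 3 SGN libraries still lay above the 3 glial libraries, but the difference of 2.73 (SE 0.95) had an adjusted p of 0.025, above the threshold of 0.01 used for cell types. At P14 SGNs also lay above HCs without overlap. That difference was 4.19 (SE 1.32, adjusted p = 0.0134), and it passed with edgeR (adjusted p = 0.000212), DESeq2 (1.25e-08), quality weights (0.000227) and the replicate block (0.00216).

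Sox4 did not follow Sox11 over the first interval. Its level was 6.66, 6.89 and 9.93 RPKM at E15.5 and 12.3, 5.83 and 7.88 RPKM at P1, which overlap (log2 0.13, 95% interval -0.60 to 0.86). At P8 it was 3.58, 1.91 and 1.36 RPKM, below each P1 library. It fell by 1.97 on the log2 scale from P1 to P8 (SE 0.43, 3.91-fold, adjusted p = 0.00728), a call lost with edgeR's quasi-likelihood test (adjusted p = 0.0709). At P30 it was 1.29, 1.08 and 0.180 RPKM, so that it fell by 3.54 from E15.5 (SE 0.70, adjusted p = 0.000833). HC libraries had 1.62, 1.98 and 1.44 RPKM, and glial libraries 1.57, 4.93 and 7.87 RPKM. Both groups overlapped the P8 SGNs. E15.5 SGNs exceeded HCs by 2.22 (SE 0.59, adjusted p = 0.00472). That call was lost with edgeR (0.0124), with 3 other settings of scaling or filter, and without SGN E15.5 replicate 3 or any 1 of the HC replicates (adjusted p = 0.0159 to 0.0269). On the TPM scale the ranges of the 2 groups overlapped. Of the exon bases of Sox4, 54.6% are shared with the antisense gene Gm26735, which had at most 13 counts, and the strand setting of the counting is not given in the sources used here.

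Sox12 declined more slowly. Its level was 26.1, 39.7 and 28.0 RPKM at E15.5, 31.3, 24.8 and 14.3 RPKM at P1 and 14.9, 11.3 and 16.3 RPKM at P8. It was 9.05, 9.08 and 8.87 RPKM at P14 and 5.97, 5.41 and 6.01 RPKM at P30, with no overlap between P8, P14 and P30, although on the TPM scale P14 overlapped both P8 and P30. No change between neighboring ages passed. The estimates were -0.44 (SE 0.24, adjusted p = 0.239), -0.71 (SE 0.25, adjusted p = 0.0828), -0.62 (SE 0.30, adjusted p = 0.454) and -0.67 (SE 0.36, adjusted p = 0.821). Without SGN P1 replicate 3 the second of these was -1.01 and passed (adjusted p = 0.00803). From E15.5 to P30 Sox12 fell by 2.44 (SE 0.32, 5.44-fold, adjusted p = 1.75e-05). HCs had 6.08, 3.36 and 3.04 RPKM, and E15.5 SGNs exceeded them by 3.02 on the log2 scale (SE 0.48, adjusted p = 3.53e-05). The glial libraries spread from 5.38 to 27.0 RPKM and overlapped SGNs at each of the 5 ages. Against glial cells E15.5 SGNs differed by 1.52 (SE 0.40, adjusted p = 0.00597), short of the 4-fold limit, which it passed without glial replicate 2 (2.09, adjusted p = 0.000846).

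Read over the 10 genes, the tests between neighboring ages called 1 gene lower and 0 higher from E15.5 to P1, where 3.18% of the 15113 genes tested were called lower and 5.08% higher. From P1 to P8 the calls were 2 lower (Sox4, Sox11) and 2 higher (Sox2, Sox10), against 3.15% and 4.29% of all genes. From P8 to P14 and from P14 to P30 there were 0 calls by limma-voom and by edgeR, and 1 in each interval by DESeq2 (Sox11 and Sox10). An unadjusted p under 0.05 was found for 1 of the 10 genes in each of these intervals, beside 11.5% of all genes from P8 to P14 and 6.55% from P14 to P30. The share of all genes called was 0.285% lower and 0.251% higher from P8 to P14, and 0.0265% lower and 0.0331% higher from P14 to P30. From E15.5 to P30 the 3 SOXC genes were called lower and 0 genes higher, against 16.2% and 18.4%. The median change of the 10 genes over this span was -2.93, beside -0.01 for all genes. That median lies between Sox8 (-2.85) and Sox6 (-3.02), which were not called and had 95% intervals that cover 0. In all, 7 of the 10 genes were not called over this span. A call between ages needed an adjusted p under 0.05 and a change over 2-fold.

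**Figure D2:**
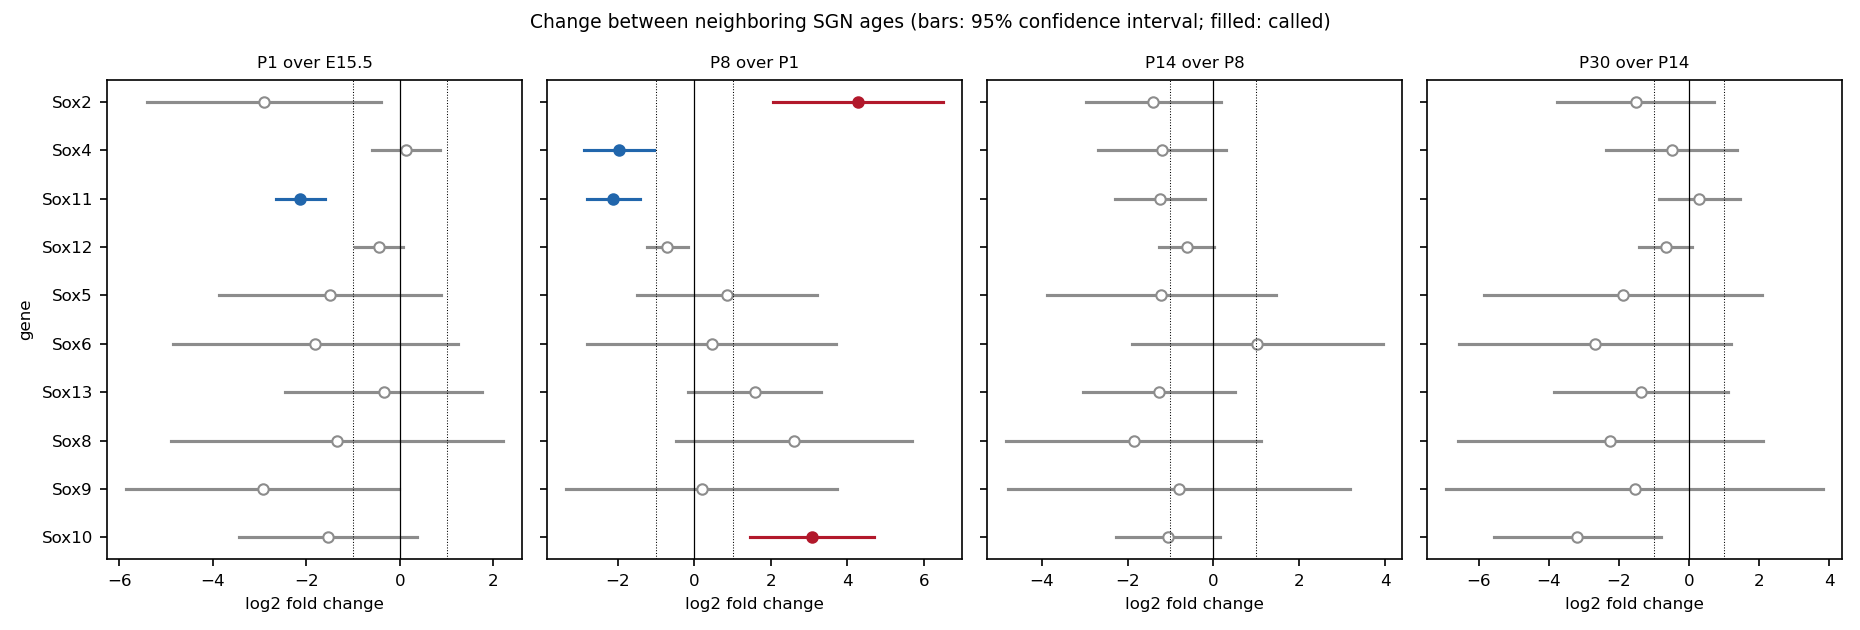
Change of each SOX gene between neighboring SGN ages as log2 fold change (later over earlier age) with its 95% confidence interval; filled points passed the test, red higher and blue lower, and dotted lines mark a 2-fold change. Sox11 was called lower in the first 2 intervals and Sox4 in the second, where Sox2 and Sox10 were called higher.

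Sox10, which directs Schwann and satellite glial cell fate, was the most abundant of the 10 genes in glial cells. It lies on the minus strand of chromosome 15, from 79154908 to 79165240, in 5 exons. Its glial level was 202, 215 and 105 RPKM, and its HC level 8.31, 8.12 and 9.31 RPKM. The study admitted libraries by quantitative PCR for marker genes that included Sox10, so the difference of Sox10 between SGNs and glial cells follows from the selection and is no finding. That difference was -4.11 at P8 (SE 0.39). HCs lay below glial cells (log2 -4.32, SE 0.45, adjusted p = 2.81e-07), with the same selection behind it.

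Within SGNs, Sox10 moved with the median of 7 glial markers. Its level was 1.21, 2.88 and 8.88 RPKM at E15.5, 1.01, 1.51 and 1.12 RPKM at P1, and 18.4, 6.01 and 8.34 RPKM at P8. It was 7.94, 3.90 and 2.91 RPKM at P14 and 1.79, 0.324 and 0.159 RPKM at P30. The 3 P8 libraries lay above the 3 P1 libraries, and the 3 P30 libraries below those of P14. The rise from P1 to P8 was 3.07 on the log2 scale (SE 0.77, adjusted p = 0.0155). It lost its call without SGN P1 replicate 1 (adjusted p = 0.088) or replicate 3 (adjusted p = 0.0542). The change from P14 to P30 was -3.20 (SE 1.13, adjusted p = 0.517) and passed only with DESeq2 (-2.72, adjusted p = 0.0483). The 7 Schwann and satellite glia markers summed to 48.7 to 127 RPKM at P1 and to 631 to 1061 RPKM at P8, with 7 of 7 above 3 counts in each P8 library. In glial cells they summed to 6583 to 9187 RPKM.

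As a percentage of its glial mean, Sox10 stood at 10.6%, 3.45% and 4.79% in the P8 SGN libraries, where the median of the 7 glial markers stood at 6.34%, 3.59% and 3.66%. At P1 Sox10 stood at 0.578%, 0.867% and 0.641%, and the markers at 0.314%, 1.18% and 0.599%. In the last P30 library both were low, 0.0914% and 0.0867%. Over the 15 SGN libraries the ratio of Sox10 to the marker median ranged from 0.572 to 2.13, with a median of 1.06, and 14 of 15 ratios lay between 0.5 and 2. The exception was SGN E15.5 replicate 3, with 5.10% for Sox10 and 2.39% for the markers. The part of glial RNA in the SGN values of Sox10 was not tested beyond these ratios.

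**Figure D3:**
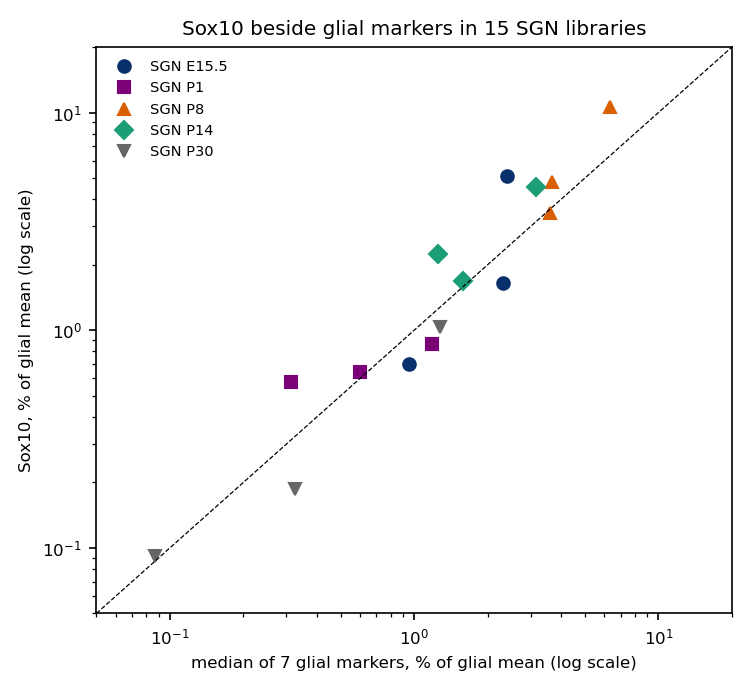
Sox10 in each of 15 SGN libraries against the median of 7 glial markers in the same library, both as a percentage of the glial mean on log axes; symbols give the age and the dashed line marks equal percentages. The points lie along the line from 0.0914% at P30 to 10.6% at P8.

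Sox9, a regulator of cartilage and of otic and supporting cells, was highest in HCs. It lies on the plus strand of chromosome 11, from 112782224 to 112787760, in 3 exons. HC libraries had 21.7, 18.3 and 17.8 RPKM, above every other library. Glial libraries had 0.0251, 16.9 and 3.99 RPKM, the first from 2 counts. SGN libraries also disagreed within an age. At E15.5 they had 4.12, 12.1 and 5.74 RPKM, at P1 6.47, 0.461 and 0.124 RPKM, and at P8 11.7, 0.547 and 0.108 RPKM. At P14 they had 1.67, 0.0776 and 1.37 RPKM and at P30 2.26 and 0.319 RPKM, with 0 counts in the last library. Replicate 1 was highest at each postnatal age. The 6 connective tissue markers summed in the same order of replicates to 18.6, 26.6 and 7.62 RPKM at E15.5. There replicate 3 had the lowest sum, whereas replicate 1 had the lowest Sox9. The sums were 82.3, 5.28 and 4.54 RPKM at P1 and 115, 15.2 and 11.0 RPKM at P8. At P14 the sums were 34.0, 4.03 and 4.68 RPKM, and at P30 18.8, 0.646 and 0.437 RPKM. In glial cells they were 216, 373 and 282 RPKM. The part of connective tissue in the values of Sox9 was not tested.

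No change of Sox9 between ages passed the test. Its estimate from E15.5 to P30 was -5.09 (95% interval -9.61 to -0.56, adjusted p = 0.0666), with the P30 libraries below those of E15.5. It passed with library size scaling (adjusted p = 0.0425) and with sample quality weights (adjusted p = 0.013). HCs exceeded glial cells by 4.45 (SE 1.57, adjusted p = 0.0254) and P14 SGNs lay below HCs (log2 -5.01, SE 1.73, adjusted p = 0.023), neither past 0.01. The first passed with the replicate block (adjusted p = 0.00824), and the second with library size scaling (0.00939) and quality weights (0.00365). The 6 supporting cell markers summed to 65.9 to 78.2 RPKM in HCs, with 6 of 6 above 3 counts in each library. They summed to 15.3, 86.6 and 99.9 RPKM in glial cells, so the sum does not single out HCs. In P8 SGNs they summed to 52.6 to 61.0 RPKM, where 1 of them, Prox1, had a mean of 50.8 RPKM. The part of supporting cells in the HC values of Sox9 and Sox2 was not tested.

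**Figure D4:**
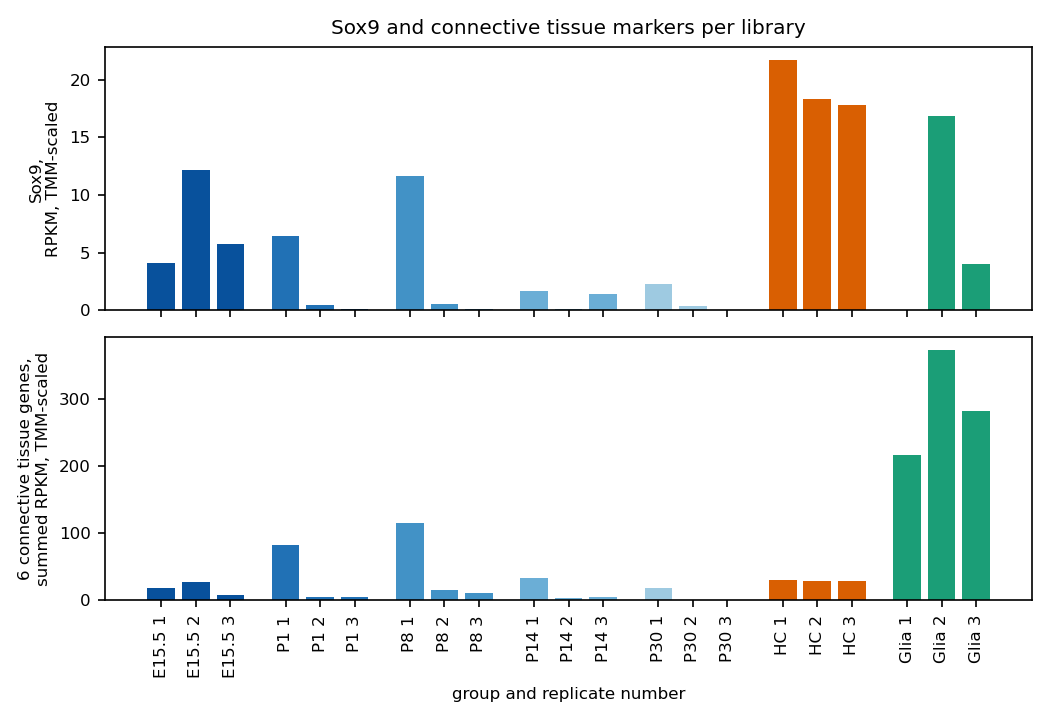
Sox9 (top) and the sum of 6 connective tissue markers (bottom) in each of 21 libraries, in RPKM with TMM scaling on linear axes, with bars colored by group. Replicate 1 has the highest Sox9 bar and the highest connective tissue bar at P1, P8, P14 and P30, while the HC libraries combine 17.8 to 21.7 RPKM of Sox9 with sums of 28.1 to 30.5 RPKM.

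Sox8, which overlaps in function with Sox9 and Sox10, was scarce. It had 3 counts or fewer in 6 of the 21 libraries and passed no limma-voom test over all libraries in the 10 comparisons. It lies on the minus strand of chromosome 17, from 25565892 to 25570686, and shares 10.6% of its exon bases with the antisense gene 2810468N07Rik, which had up to 186 counts. Glial levels were 1.96, 8.26 and 0.498 RPKM, and SGN levels at P8 were 1.10, 0.640 and 0.676 RPKM. At P30 the first SGN library had 0.759 RPKM and the others 0 counts. HCs had 24, 6 and 0 counts. The HC levels lay below the glial levels, with a log2 difference of -5.05 (SE 1.69, adjusted p = 0.0191). Without glial replicate 3 this difference was -5.81 and passed (adjusted p = 0.0077).

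Sox2, a progenitor factor that marks supporting cells and peripheral glia, was high in glial cells and HCs and low in SGNs. The gene has 1 exon on the plus strand of chromosome 3, from 34650405 to 34652461, within the noncoding gene Sox2ot, with which it shares 0 exon bases. Glial libraries had 47.6, 36.0 and 25.1 RPKM and HCs 31.1, 24.7 and 23.7 RPKM. According to the study, Sox2 is known from vestibular HCs, which were part of the HC libraries. The difference between HCs and glial cells was -0.50 (95% interval -1.22 to 0.22), while on the TPM scale HCs were higher without overlap (94.8 against 41.3 TPM on average). Sox2 was 8.64-fold lower in P8 SGNs than in glial cells (log2 -3.11, SE 0.48, adjusted p = 3.53e-05). It was 16.5-fold lower in P14 SGNs than in HCs (log2 -4.04, SE 0.69, adjusted p = 7.22e-05).

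Among the SGN ages Sox2 changed most from P1 to P8. Levels were 0.140, 0.251 and 0.290 RPKM at P1, from 10 to 14 counts, and 4.39, 3.85 and 4.53 RPKM at P8. The P8 libraries lay close together, each above each P1 library. The rise was 4.28 on the log2 scale (SE 1.06, 19.4-fold, adjusted p = 0.0147), and its call was lost without SGN P1 replicate 1 (3.92, adjusted p = 0.0858). The same interval holds the rise of the glial markers given above. As a percentage of the glial mean, Sox2 stood at 12.1%, 10.6% and 12.5% in the P8 SGNs and at 0.385%, 0.693% and 0.801% at P1. At E15.5 Sox2 had 0.392, 3.08 and 2.70 RPKM, above the P1 libraries. The fall from E15.5 to P1 did not pass (-2.91, SE 1.18, adjusted p = 0.118), but did so with DESeq2 (adjusted p = 0.00729) and without SGN E15.5 replicate 1 (adjusted p = 0.0379). At P14 a single library had 4.94 RPKM and the others 0.884 and 0.720 RPKM.

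The SOXD genes were highest on average in glial cells. Sox13, which can bind beside other transcription factors as a repressor, lies on the minus strand of chromosome 1, from 133382303 to 133424377. Glial levels were 22.1, 30.9 and 14.7 RPKM, and HC levels 5.01, 5.21 and 6.31 RPKM. SGN levels at P8 were 3.75, 1.40 and 0.978 RPKM, and at the other SGN ages no library exceeded 2.72 RPKM. The glial, HC and P8 SGN ranges did not overlap. On the TPM scale the glial range (16.0 to 34.4 TPM) and the HC range (17.1 to 23.6 TPM) overlapped. P8 SGNs lay below glial cells (log2 -3.60, SE 0.54, 12.1-fold, adjusted p = 2.34e-05). P14 SGNs lay below HCs (-2.90, SE 0.78, adjusted p = 0.00467), a call lost with edgeR (adjusted p = 0.0172) and without any 1 of the P14 replicates or HC replicate 3 (0.0129 to 0.0216). HCs lay below glial cells (-1.98, SE 0.43, adjusted p = 0.00087), just inside the 4-fold limit and so not called. It passed that limit with quality weights, with the replicate block and without HC replicate 3 or glial replicate 3 (log2 -2.01 to -2.18), while mean TPM were 19.9 in HCs and 25.6 in glial cells.

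Sox5, which partners SOX9 in cartilage and also acts in neurons and glia, spans chromosome 6 from 143828425 to 144781977. Glial levels were 9.08, 4.70 and 7.89 RPKM, HC levels 1.34, 1.23 and 0.982 RPKM and P8 SGN levels 1.71, 0.588 and 0.192 RPKM. Every glial library lay above every HC and P8 SGN library. P8 SGNs were lower than glial cells (log2 -3.53, SE 0.74, adjusted p = 0.00071), and this call was lost with edgeR (adjusted p = 0.0194). HCs were lower than glial cells (-2.63, SE 0.66, adjusted p = 0.00305). That call was lost with edgeR, DESeq2, library size scaling and no filter, and without any 1 of the HC replicates or glial replicate 1. At E15.5 the SGN libraries had 0.131, 3.41 and 1.31 RPKM, and at P30 0.151, 0.0765 and 0.0263 RPKM. The change over this span was -3.76 (SE 1.69, adjusted p = 0.0851), and it passed with edgeR (0.011), DESeq2 (4.38e-05), library size scaling (0.0495), quality weights (0.0352) and without SGN E15.5 replicate 1 (0.0141).

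Sox6, the close relative of Sox5, spans chromosome 7 from 115470872 to 116038796. Glial levels were 1.58, 4.25 and 5.48 RPKM, and HC levels 2.62, 1.93 and 1.52 RPKM, which overlap. P8 SGNs had 0.395, 0.0650 and 0.104 RPKM. They lay below glial cells (log2 -4.38, SE 1.11, 20.8-fold, adjusted p = 0.0032). This call was lost with edgeR (adjusted p = 0.0215) and without SGN P8 replicate 2 (adjusted p = 0.0209) or 3 (adjusted p = 0.0153). In SGNs a single library stood out at 2 ages, 2.86 RPKM in E15.5 replicate 2 and 1.46 RPKM in P14 replicate 1, whereas the remaining SGN libraries had at most 0.395 RPKM.

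Counted over the 10 genes, P8 SGNs were lower than glial cells for 5 (Sox2, Sox5, Sox6, Sox10, Sox13) and higher for 0, against 7.53% lower and 13.4% higher among the 17531 genes tested. P14 SGNs were lower than HCs for 2 (Sox2, Sox13) and higher for 0, against 12.2% and 10.9%. HCs were lower than glial cells for 2 (Sox5, Sox10) and higher for 0, against 8.18% and 16.2%. E15.5 SGNs were lower than glial cells for 4 (Sox2, Sox5, Sox10, Sox13) and higher for Sox11, against 6.30% and 10.1%. The same E15.5 SGNs were lower than HCs for 2 (Sox2, Sox13) and higher for 3 (Sox4, Sox11, Sox12), against 11.9% and 9.24%. Sox10, whose direction was fixed by the selection of libraries, is among the lower genes in each of the 3 comparisons with glial cells. Without it the lower genes numbered 4 for P8 SGNs, 1 for HCs and 3 for E15.5 SGNs. Sample quality weights turned the balance of all calls against glial cells, with 38.2% higher in place of 64.0% (P8 SGNs), 38.7% in place of 66.4% (HCs) and 35.8% in place of 61.5% (E15.5 SGNs). These comparisons share libraries, so their counts are not independent of one another. A call between cell types needed an adjusted p under 0.01 and a difference over 4-fold. Without E15.5 replicate 3, or without HC replicate 1, 2 or 3, the calls of E15.5 SGNs against HCs numbered 3 in place of 5, with Sox4 and Sox13 lost. Sox13 was also lost there without E15.5 replicate 1 (adjusted p = 0.0269), and with edgeR (0.0523), no filter (0.0102) and quality weights (0.015). Against glial cells, Sox5 in E15.5 SGNs lost its call with edgeR (log2 -2.16, adjusted p = 0.0919), DESeq2 (0.035), library size scaling (0.0105), no filter (0.0143) and quality weights (0.0461), and without E15.5 replicate 1 or 3 or glial replicate 1 or 3 (adjusted p = 0.0108 to 0.0232).

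**Figure D5:**
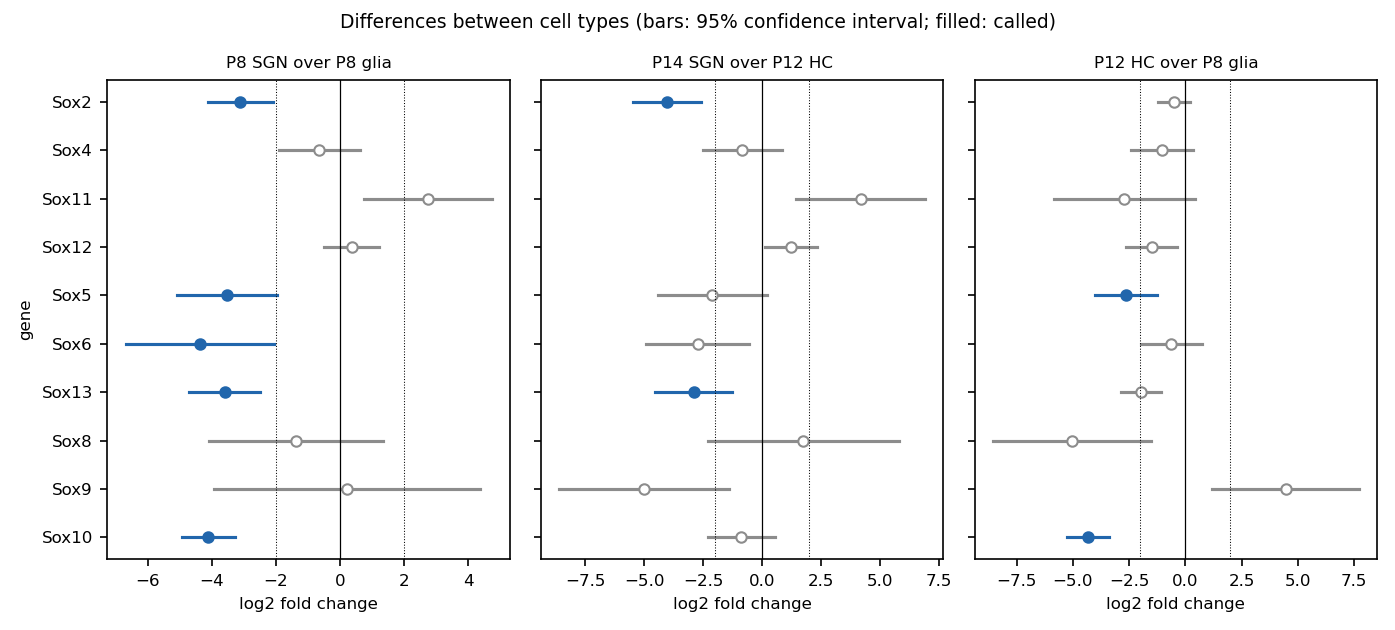
Difference of each SOX gene between cell types as log2 fold change with its 95% confidence interval; filled points passed the test and dotted lines mark a 4-fold difference. Filled points are Sox2, Sox5, Sox6, Sox10 and Sox13 for P8 SGNs against glial cells, Sox2 and Sox13 for P14 SGNs against HCs, and Sox5 and Sox10 for HCs against glial cells; the interval for Sox2 between HCs and glial cells covers 0, while its TPM were higher in HCs.

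The 7 groups were ordered by mean RPKM for each gene, and the library ranges of neighboring groups were compared. How often such ranges overlap over all genes was not computed. Ranges were separate for Sox11 between E15.5, P1, P8 and P30, and for Sox12 between P8, P14 and P30, among others. They were also separate for Sox10, Sox5 and Sox13 between glial cells and the next group. On the TPM scale Sox13 overlapped between glial cells and HCs, and Sox12 at P14 overlapped P8 and P30. Sox11 at P8 overlapped the next group on that scale. For Sox4, Sox6 and Sox8 each neighboring pair overlapped. The order of the lower SGN ages for these genes therefore lies within the spread of replicates.

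Of the other 10 Sox and Sry genes, 2 had enough counts to be tested across all 21 libraries. Sox1, a SOXB1 gene, had 11.4, 10.3 and 15.6 RPKM in HCs and at most 0.402 RPKM in any other library. Sox21, a SOXB2 gene, had 7.97, 11.0 and 11.5 RPKM in HCs and at most 1.59 RPKM elsewhere. Both were tested only because they exceeded 1 CPM in all 3 HC replicates, which they did in no other group. A higher level in HCs therefore follows from that filter, and its p-values are not given. The log2 difference of HCs over glial cells was 8.14 for Sox1 (SE 1.09) and 7.77 for Sox21 (SE 1.34). For P14 SGNs over HCs it was -8.38 for Sox1 and -6.17 for Sox21. The SOXF genes Sox7, Sox17 and Sox18, which act in endothelium, were seen mainly in SGN P1 replicate 1, at 3.31, 0.897 and 3.44 RPKM, and had 0 counts in the other P1 libraries. The 4 endothelial markers summed to 41.7 RPKM in that library and to 0.0570 and 0.130 RPKM in the others.

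Among 14 glial genes known to act downstream of SOXE factors, 11 could be tested across SGN ages. From P1 to P8 7 of these rose and 0 fell, beside 4.29% and 3.15% of all genes. They included the myelin genes Pmp22 (3.78, SE 0.82, adjusted p = 0.00654) and Mbp (3.50, SE 0.47, adjusted p = 0.000168). Egr2, a myelination factor, rose by 3.15 (SE 0.73, adjusted p = 0.0102). The list's median was 3.07, beside -0.01 for all genes, and Pmp22 and Mbp are also among the 7 glial markers. From E15.5 to P1, 1 rose (S100b, 2.69, SE 0.67) and 1 fell (Cdh19, -4.63, SE 1.21). From E15.5 to P30, 1 was higher (S100b) and 3 were lower (Cdh19, Foxd3, Erbb3). From P8 to P14 and from P14 to P30 the calls were 0. Against glial cells, 12 of 14 were lower in P8 SGNs, in E15.5 SGNs and in HCs, and 1, 0 and 0 were higher, beside 7.53%, 6.30% and 8.18% of all genes lower. Genes of the 14 not tested across SGN ages passed the filter only through HCs or glial cells. A lower level of these genes in SGNs follows in part from that filter. In P14 SGNs 3 of 14, Mbp and S100b included, were higher than in HCs and 0 lower, beside 10.9% of all genes higher, and in E15.5 SGNs 0 were called against HCs.

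Among the 4 neuronal genes that SOXC factors are known to regulate, Dcx was called lower from P1 to P8, as was Sox11. By limma-voom, Sox11 was also called from E15.5 to P1, where Dcx was not. Dcx was called from P8 to P14, where Sox11 was not. Dcx encodes a microtubule protein of migrating neurons. Its mean level was 109 RPKM at E15.5, 93.2 RPKM at P1, 6.50 RPKM at P8 and 1.83 RPKM at P14. Dcx was the only 1 of the 4 called from P1 to P8 (-3.84, SE 0.18, adjusted p = 2.89e-09) and from P8 to P14 (-1.86, SE 0.32, adjusted p = 0.0101). From E15.5 to P30, Dcx and Neurod1, a neuronal differentiation factor, were called lower (-5.71, SE 0.26, and -5.33, SE 1.24). Between E15.5 and P1, where Sox11 fell, 0 of the 4 were called by limma-voom. Tubb3, a neuronal tubulin, was higher in P8 SGNs than in glial cells (5.65, SE 0.83), as were Dcx (6.67, SE 1.27) and Neurod1 (1.20 against 0.0127 RPKM on average), and Tead2, a partner of YAP, was lower (-4.89, SE 1.21). In E15.5 SGNs 3 of the 4 were higher than in glial cells and 3 higher than in HCs, and 0 were lower in either comparison, beside 10.1% and 9.24% of all genes higher. For P8 SGNs against glial cells, where 3 of the 4 were higher and 1 lower, the shares of all genes were 13.4% and 7.53%. In P14 SGNs 2 (Tubb3 and Dcx) were higher than in HCs, and 2 (Tead2 and Tubb3) were lower in HCs than in glial cells, beside 10.9% of all genes higher and 8.18% lower.

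Among 7 cartilage matrix genes that SOX9 and SOXD factors regulate, 5 could be tested across ages and 1 was called between neighboring ages, Hapln1, a link protein, which rose from P1 to P8 (2.94, SE 0.82, adjusted p = 0.0292). Hapln1 was also called higher in P14 SGNs (mean 37.7 RPKM) than in HCs (0.0201 RPKM). Comp was called higher in E15.5 SGNs (mean 32.2 RPKM) than in glial cells (0.00583 RPKM). In the remaining comparisons 0 of the list were called. Among 5 inner ear genes linked to SOX2, 4 were higher in HCs than in glial cells, beside 16.2% of all genes. They included the HC determinant Atoh1 (5.95, SE 0.92), Eya1 (3.53, SE 0.34) and Prox1 (3.25, SE 0.57). Atoh1 was not tested across SGN ages, with a mean of 5.97 RPKM in HCs and 0.115 RPKM in glial cells. It entered the tests through HCs, which were also labeled by Atoh1-CreER+, so its higher level there follows from that selection. In P8 SGNs 3 of the 5 were higher than in glial cells, Prox1 (4.10) and Eya1 (2.29) among them, and 1, the Notch ligand Jag1, was lower (-2.69, SE 0.52). Across ages, Jag1 fell from E15.5 to P1 (-2.30, SE 0.61) and Prox1 rose (2.78, SE 0.28). From E15.5 to P30, Jag1 (-3.53) and Eya1 (-1.76) were lower and Prox1 was higher (1.18). Atoh1 and Jag1 were lower in P14 SGNs than in HCs, and Atoh1 alone was lower in E15.5 SGNs than in HCs. For Atoh1 both differences follow from the same selection. Of the 5 genes, 2, Eya1 (3.29) among them, were higher in E15.5 SGNs than in glial cells. In the 3 intervals after P1 limma-voom called 0 of this list.

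The genes with the most similar pattern were taken as those with the highest Pearson's r of log2(CPM + 1) over the 21 libraries, among 11282 or 11283 genes. The r values describe points that share cell types and libraries. Sox11 was nearest to Dcx (0.95), Carmil3 (0.94) and Thsd7a (0.94). Sox10 was nearest to Igsf11 (0.97), Ttyh1 (0.97) and Timp3 (0.96), and Sox13 to Foxo1 (0.95), Plpp3 (0.95) and Mertk (0.94). Sox2 was nearest to Plekhb1 (0.96), Cflar (0.93) and Per3 (0.92). Sox9 was nearest to Smad3 (0.90), Tectb (0.88), which encodes a protein of the tectorial membrane, and Egfr (0.86). Sox4 was nearest to Trib1 (0.92), Mex3a (0.90) and Arhgap33 (0.90), and Sox12 to 2700081O15Rik (0.91), Rps24 (0.90) and Gdf11 (0.90). Sox5 was nearest to Wasf2 (0.93), Lamb2 (0.92) and Litaf (0.91), Sox6 to Adgrg6 (0.92), Lrp5 (0.92) and Neat1 (0.91), and Sox8 to Itm2a (0.87), Slc12a4 (0.87) and Aebp1 (0.87). Among the 10 genes themselves the highest values were for Sox10 with Sox13 (0.88) and Sox2 with Sox13 (0.88), while Sox11 with Sox12 had 0.75.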

How the data were processed

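RNA-Seq counts of 21 libraries in 7 groups were used, grouped by the sample titles and descriptions. Per the labels and the study's methods, the authors aligned reads to the mm10 genome by STAR 2.4.0i and counted them per GENCODE vM15 gene by featureCounts. The deposited counts were not normalized and came with gene lengths. Base calling used CASAVA per the submitters' processing notes. Whether counting used strand or pairs is not given in the sources used here. Even numbers made up a median of 67.9% of the low counts, so a count may be a single read of a pair. Totals ranged from 10368240 to 37287489 counts.

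GENCODE M21 (GRCm38) gave symbols and positions, with a symbol for 52403 of 52550 genes. Promoter sequences came from RefSeq on GRCm38.p6. After TMM scaling in edgeR 4.0.16, limma-voom 3.58.1 (R 4.3.3) estimated a mean per group and moderated the variances. Tests were two-sided with Benjamini-Hochberg adjustment over all genes tested. Ages were compared in the 15 SGN libraries (15113 genes, each above 1 CPM in the 3 replicates of some age), with an adjusted p under 0.05 and over 2-fold. Cell types were compared in all 21 libraries (17531 genes), with an adjusted p under 0.01 and over 4-fold. The 10 SOX genes passed both filters. Levels were planned in TPM, computed from counts and lengths. RPKM with TMM scaling was chosen in its place after seeing the data. Tables and plots used Python 3.11.15, pandas 2.3.3 and matplotlib 3.10.9. The fits were tested on simulated data.

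The genes, lists and tests were chosen with earlier results of these data known. Text names the 10 SOX genes, up to 4 called genes with the largest change per list, and the 3 most similar genes per SOX gene. Results of some listed genes are not reported here. Other Sox genes without enough counts, and genes named for the scale or for overlap, were named after their values were seen. Alternatives were edgeR's quasi-likelihood test, DESeq2 1.42.0, RLE factors, library size scaling, no filter, sample quality weights, the replicate number as a block and each library left out in turn. Deviations of libraries with the same replicate number correlated with r of 0.393, 0.244 and 0.104 between P14 and P30, each above 0.1. In the 9 other comparisons at least 1 of the 3 lay below.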

Additional observations from a re-analysis of the deposited data

How the results depend on the processing

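For the log2 fold changes of the 10 genes, 653 values under other tests, scalings, filters, weights or the block kept direction and side of the threshold, 27 passed newly and 20 no longer passed. With 1 library left out, 563 kept both, 11 passed newly and 26 no longer passed. No called value changed sign, while 32 values that passed in neither fit did. The causes were not tested.

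The number of the 10 genes called changed as follows. From E15.5 to P1 it was 1, and 2 with DESeq2. From P8 to P14 and from P14 to P30 it was 0, and 1 with DESeq2. From E15.5 to P30 it was 3, 5 with edgeR, and 6 with DESeq2, library size scaling or quality weights. For P8 SGNs against glial cells it was 5, and 3 with edgeR. For P14 SGNs against HCs it was 2, 4 with library size scaling and 5 with quality weights. For HCs against glial cells it was 2, and 1 with library size scaling or no filter. For E15.5 SGNs against HCs it was 5, and 3 with edgeR or no filter. With 1 library left out, the counts ranged from 1 to 2 (E15.5 to P1), 2 to 4 (P1 to P8), 0 to 0 (P8 to P14 and P14 to P30) and 3 to 5 (E15.5 to P30). They ranged from 4 to 5 (P8 SGNs against glial cells), 1 to 2 (P14 SGNs against HCs), 1 to 4 (HCs against glial cells), 4 to 6 (E15.5 SGNs against glial cells) and 3 to 5 (E15.5 SGNs against HCs). The number of genes with their highest mean in an SGN group was 3 in TPM, CPM and RPKM.

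With the replicate number as a block, HCs against glial cells gave 4 calls (Sox5, Sox9, Sox10, Sox13) in place of 2, and the other 9 counts stayed within 1.5 times. The block moved the calls over all genes from 81 to 146 (P8 to P14) and from 9 to 23 (P14 to P30), and called none of the 10 genes there. Between P14 and P30 the deviations of libraries with the same replicate number correlated, but no label pairs these libraries. The source of that correlation was not tested.

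Over all genes, calls fell from 1248 to 552 (E15.5 to P1), 3662 to 1942 (P8 SGNs against glial cells), 4272 to 2226 (HCs against glial cells) and 2868 to 850 (E15.5 SGNs against glial cells) with quality weights, and from 1124 to 649 (P1 to P8) with edgeR. From P8 to P14 they were 34 with edgeR, 219 with DESeq2 and 174 with quality weights, and from P14 to P30 97 with DESeq2, 15 without filter and 110 with quality weights. With 1 library left out, they ranged from 688 to 1772 (E15.5 to P1), 652 to 1015 (P1 to P8), 28 to 54 (P8 to P14) and 1 to 30 (P14 to P30).

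Library size scaling shifted the median of all genes by -0.71 (P14 SGNs against HCs) to 0.49 (HCs against glial cells) on the log2 scale. It moved the share of calls that were higher from 61.5% to 46.7% (E15.5 to P1), 57.7% to 35.6% (P1 to P8), 46.9% to 26.0% (P8 to P14), 53.2% to 29.9% (E15.5 to P30), 47.2% to 27.0% (P14 SGNs against HCs) and 66.4% to 77.8% (HCs against glial cells). From P8 to P14 the share was 17.6% with edgeR and 32.9% with DESeq2, and from P14 to P30 it was 16.7% with edgeR, 22.7% with DESeq2 and 37.3% with quality weights in place of 55.6%. With quality weights it fell from 64.0% to 38.2% (P8 SGNs against glial cells), 66.4% to 38.7% (HCs against glial cells) and 61.5% to 35.8% (E15.5 SGNs against glial cells). With edgeR it was 72.2% (E15.5 to P1), 61.1% (P14 SGNs against HCs), 53.3% (HCs against glial cells) and 54.9% in place of 43.8% (E15.5 SGNs against HCs). Sox8 and Sox9 had 0 counts in some libraries, so changes of these genes below that depth were not detectable.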
